A study of Homo sapiens with 4 samples.

Results

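Transcripts of 10 regulators of mTORC1, the nutrient-sensing protein kinase complex, were followed in 4 RNA-seq libraries of MDA-MB-231 cells. The 10 genes were taken by their names from a deposited table of 32955 genes. They are the sestrins SESN1, SESN2 and SESN3, the inhibitors DDIT4 and DEPTOR, the Rag GTPases RRAGC and RRAGD with their partner FLCN, and TSC1 and TSC2. MDA-MB-231 is a human breast cancer line without the estrogen receptor. It was grown in DMEM with fetal bovine serum. The treatment was mimic NC, a negative control oligonucleotide, in 2 libraries and miR-217 mimic, a synthetic RNA that does the work of miR-217, in the other 2, both given by transfection. Each treatment has 1 library numbered 1 and 1 numbered 2, so the same libraries also allow number 2 to be set against number 1. The labels say neither what the number marks nor whether the replicates were separate cultures, nor do they give a time after transfection or a dose. The p-values below therefore measure only the spread between these samples, which may be technical. The study asked which transcripts change with miR-217 mimic.

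mTORC1 promotes protein synthesis and growth when amino acids, energy and growth factors are at hand. Amino acids act through the Rag GTPases, which bring mTORC1 to the lysosome. They are held in check by the GATOR1 complex, which is in turn opposed by GATOR2, and sestrins bind GATOR2. Growth factors act through the TSC complex, in which TSC2 switches off the small GTPase RHEB, the direct activator of the kinase. Several of the 10 genes are also stress genes. SESN2 and DDIT4 are known targets of the amino acid stress factor ATF4, SESN1 of p53 and SESN3 of FOXO factors, while RRAGC, RRAGD and FLCN are known targets of the lysosomal factors TFEB and TFE3. This is not a full list of the factors that act on these genes. A transcript level does not measure the activity of the kinase.

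The transfected oligonucleotide acts through its seed, bases 2 to 8, shown in capitals in the mature miRNA (RefSeq, GRCh38.p14, chromosome 2, minus strand, 55983020 to 55983042). The seed pairs with the heptamer ATGCAGT in a 3'UTR, and with ATGCAGTA where an A follows. In the longest 3'UTR of each of the 10 genes (GENCODE 29), SESN3 held 1 match of 8 bases and FLCN held 1 heptamer, while the other 8 genes held neither. The matches are in capitals below because these 2 genes are the members that miR-217 could pair with through its whole seed. The SESN3 window lies at chr11:95168621-95168650, minus strand, with the site at bases 4616 to 4623 of a 3'UTR of 7742 bases. The FLCN window lies at chr17:17213290-17213318, minus strand, with the heptamer at bases 348 to 354 of 1443.
hsa-miR-217-5p: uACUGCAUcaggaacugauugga
SESN3 3'UTR: accagatgttaATGCAGTAtcaagtgtaaa
FLCN 3'UTR: tccgactcagtATGCAGTcgcaataacat
Among 9911 tested genes with a 3'UTR, 14.5% held the heptamer and 3.67% the 8-base match. A match is a description of the letters and does not show pairing in the cell.

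The reads recovered from the RPKM values (reads divided by exon length and by the size of the library) summed to between 32635814 and 57933183 per library, and both libraries numbered 2 were smaller than both numbered 1. Of the genes in the table, 13871 had a mean of at least 1 RPKM and were tested. The 6 markers of the line that were looked up, VIM among them, were at 5.17 to 156.7 RPKM. ESR1, which encodes the estrogen receptor, was at 0.0294 to 0.0756 RPKM. Of the 7 luminal breast markers 6 were listed in the table, the highest being EPCAM at up to 7.41 RPKM. The summed level of 4 markers of blood, endothelium and smooth muscle was 0.924 to 1.19 RPKM in 3 libraries and 2.37 RPKM in miR-217 mimic replicate 2. PTPRC was highest among these at 1.25 RPKM in that library. The part of these marker levels in the results was not tested.

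The members covered a wide range of levels, and their order by mean RPKM was led by a single gene. DDIT4 stood at 143 ± 25.3 RPKM (mean ± SD over the 4 libraries). TSC1 followed at 8.92 ± 0.710 RPKM, then TSC2 at 7.37 ± 0.849 RPKM and RRAGC at 6.65 ± 1.39 RPKM. The libraries of TSC2 and RRAGC overlapped in level, so their order is not resolved. SESN2 at 2.89 ± 1.69 RPKM and SESN1 at 1.25 ± 0.288 RPKM overlapped as well. Below them lay FLCN at 0.713 ± 0.0630 RPKM and DEPTOR at 0.200 ± 0.0693 RPKM, each apart from its neighbours. RRAGD at 0.0327 ± 0.0224 RPKM and SESN3 at 0.0310 ± 0.0156 RPKM were the lowest and overlapped. The 4 genes from FLCN downwards had a mean under 1 RPKM and were left out of the test, which leaves 6 tested members.

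**Figure D1:**
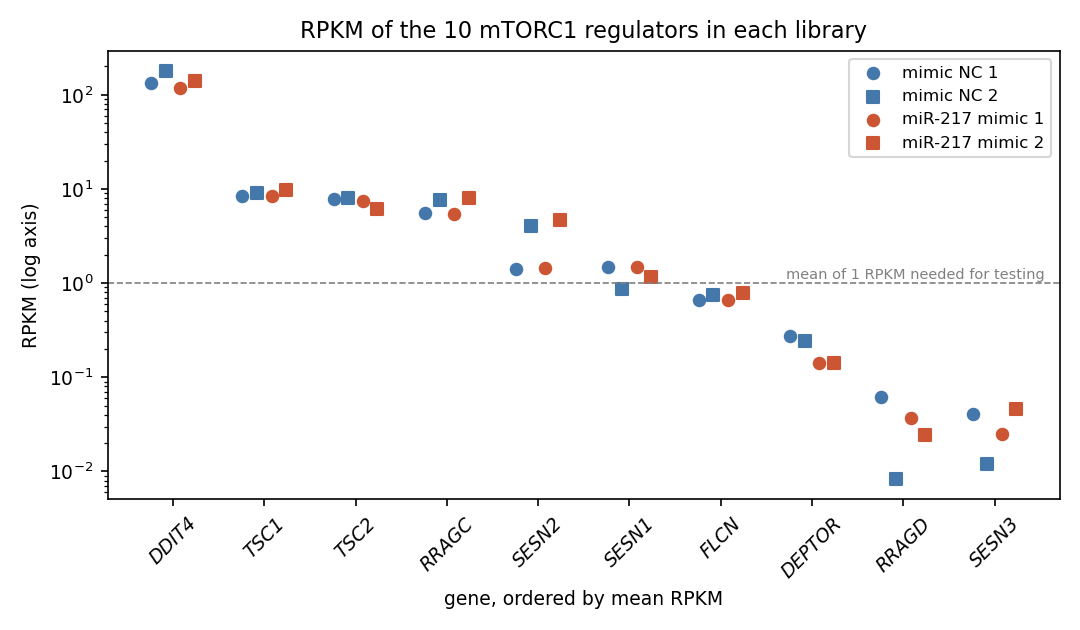
RPKM of each gene (log axis) in each library, with mimic NC in blue, miR-217 mimic in orange, circles for number 1 and squares for number 2. DDIT4 lies above 100 RPKM in every library, SESN2 has both squares above both circles, and the 4 genes from FLCN to the right have a mean below the dashed line at 1 RPKM.

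With miR-217 mimic, none of the 6 tested members passed the test. The libraries of the 2 treatments overlapped for every tested member but TSC2. By limma on log2(RPKM + 1), 0 of the 6 had an unadjusted p under 0.05, against 1.19% of all genes tested, and after Benjamini-Hochberg adjustment 0 of all 13871 genes passed 0.05, a share of 0%. This fit has no term for the number. With such a term 1046 genes had an unadjusted p under 0.05 in limma, against 165 without it, and 1 member, DDIT4, was among the 1046. The median log2 difference was 0.04 over the 6 members and -0.02 over all genes tested. Both miR-217 mimic libraries lay outside both mimic NC libraries in 1 of the 6, against 23.2% of all genes. With 2 libraries on each side, a two-sided exact permutation test can reach 0.333 at the lowest, so the p-values are those of limma, where the spread of each gene is moderated by that of the others.

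TSC2, on chromosome 16 (plus strand, 2047465 to 2088720, hg38), encodes the subunit of the TSC complex that acts on RHEB. It was at 7.84 and 8.01 RPKM in mimic NC replicates 1 and 2 and at 7.50 and 6.14 RPKM in miR-217 mimic replicates 1 and 2. Both miR-217 mimic libraries were thus the lower ones, replicate 2 by far the more. Its means were 7.92 ± 0.122 and 6.82 ± 0.967 RPKM (SD, n = 2), a ratio of 0.861. On the log2(RPKM + 1) scale the difference was -0.20 (95% interval -0.55 to 0.16), with a limma Benjamini-Hochberg adjusted p of 1.00. NTHL1, a DNA repair gene that shares 3.61% of the exon bases of TSC2 on the opposite strand, had a miR-217 mimic to mimic NC ratio of 0.816.

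TSC1 (chromosome 9, minus strand, 132891348 to 132944633), which encodes the partner that stabilises TSC2, was at 8.32 and 9.11 RPKM in mimic NC and at 8.40 and 9.84 RPKM in miR-217 mimic replicates 1 and 2. Its libraries interleaved, and the log2 difference was 0.06 (95% interval -0.29 to 0.41). The ratio of TSC1 to TSC2 was 1.06, 1.14 and 1.12 in mimic NC replicate 1, mimic NC replicate 2 and miR-217 mimic replicate 1, and it was 1.60 in miR-217 mimic replicate 2, the smallest library. Within number 1, TSC2 was 0.06 lower with miR-217 mimic on the log2 scale, and within number 2 it was 0.34 lower.

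DDIT4 (chromosome 10, plus strand, 72273920 to 72276036) encodes REDD1, a stress-induced protein that lowers mTORC1 activity through the TSC complex. It was at 134.6 and 178.4 RPKM in mimic NC and at 118.7 and 140.3 RPKM in miR-217 mimic replicates 1 and 2. Each miR-217 mimic library was lower than the mimic NC library of the same number, but the groups overlapped because number 2 was the higher in both. Its ratio of means was 0.827, and the log2 difference was -0.26 (95% interval -0.78 to 0.25, limma Benjamini-Hochberg adjusted p = 1.00). It was -0.46 without mimic NC replicate 1 and -0.06 without mimic NC replicate 2. With a term for the number it was again -0.26, with an unadjusted limma p of 0.0284 and a Benjamini-Hochberg adjusted p of 0.633. Limma voom with that term, a fit added after the data were seen, gave an unadjusted p of 0.00648. Its Benjamini-Hochberg adjusted p was 0.418. The exons of DDIT4 share 41.2% of their bases with RP11-442H21.2, a gene on the opposite strand, which was at 252.9 to 383.2 RPKM with a miR-217 mimic to mimic NC ratio of 0.821. The library kit keeps strand, but whether the counting used it is not given in the sources used here, so the reads of the 2 genes may not be separate.

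DEPTOR (chromosome 8, plus strand, 119873717 to 120050913) encodes an inhibitory subunit of both mTOR complexes. It had 42 and 30 reads in mimic NC replicates 1 and 2, with exact 95% Poisson intervals of 30.3 to 56.8 and 20.2 to 42.8, which cover counting error only. In miR-217 mimic replicates 1 and 2 it had 20 reads (12.2 to 30.9) and 12 reads (6.20 to 21.0). These reads came to 0.276 and 0.242 RPKM in mimic NC and to 0.143 and 0.140 RPKM in miR-217 mimic, and the groups did not overlap. The ratio of means was 0.547, with 0.517 within number 1 and 0.581 within number 2. KB-1471A8.1, on the opposite strand, shares 9.61% of the exon bases of DEPTOR. That gene had 4 to 17 reads per library and a miR-217 mimic to mimic NC ratio of 0.531. DEPTOR was too low for the test used elsewhere. In limma voom on the recovered reads of all genes with a mean of at least 10 reads, a fit added after the data were seen, the log2 difference was -0.85 with an unadjusted p of 0.0945 and a Benjamini-Hochberg adjusted p of 1.00. It held neither the heptamer nor the 8-base match in its 3'UTR of 1209 bases.

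FLCN and SESN3, the 2 genes with a seed match, did not lie lower in both miR-217 mimic libraries. In the same voom fit as for DEPTOR the log2 difference was 0.05 for FLCN, with an unadjusted p of 0.809, and 0.47 for SESN3, with an unadjusted p of 0.539. FLCN (chromosome 17, minus strand, 17212212 to 17237188), which encodes folliculin and acts on the Rag GTPases, was at 0.654 and 0.740 RPKM in mimic NC and at 0.668 and 0.789 RPKM in miR-217 mimic, 252 to 371 reads per library. The miR-217 mimic library was the higher one within each number, with ratios of 1.02 and 1.07. Its exons share 11.9% of their bases with RP11-45M22.4 on the same strand, so that reads there could belong to either gene. SESN3 (chromosome 11, minus strand, 95165513 to 95232541) had 25 and 6 reads in mimic NC and 14 and 16 reads in miR-217 mimic. Its lowest and its next to highest RPKM were both in mimic NC, at 0.0120 and 0.0408. At these counts a difference of SESN3 between the treatments was not detectable.

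For SESN1, SESN2 and RRAGC the libraries of the treatments overlapped, while those of the numbers lay apart. Their log2 differences between miR-217 mimic and mimic NC were 0.10 (95% interval -0.38 to 0.58), 0.09 (-1.29 to 1.48) and 0.02 (-0.59 to 0.64), and the limma Benjamini-Hochberg adjusted p was 1.00 for each. The interval of SESN2 is the widest of the 6 because the libraries of each treatment were far apart. A p that misses the threshold does not show that the levels were alike. For SESN2 the interval still holds a change of more than 1 on the log2 scale in either direction. That fit has no term for the number, however. Within number 1 the SESN2 difference was 0.01, and within number 2 it was 0.17. A limma fit with a term for the number gave 0.09, with an unadjusted p of 0.367 and a Benjamini-Hochberg adjusted p of 0.756.

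**Figure D2:**
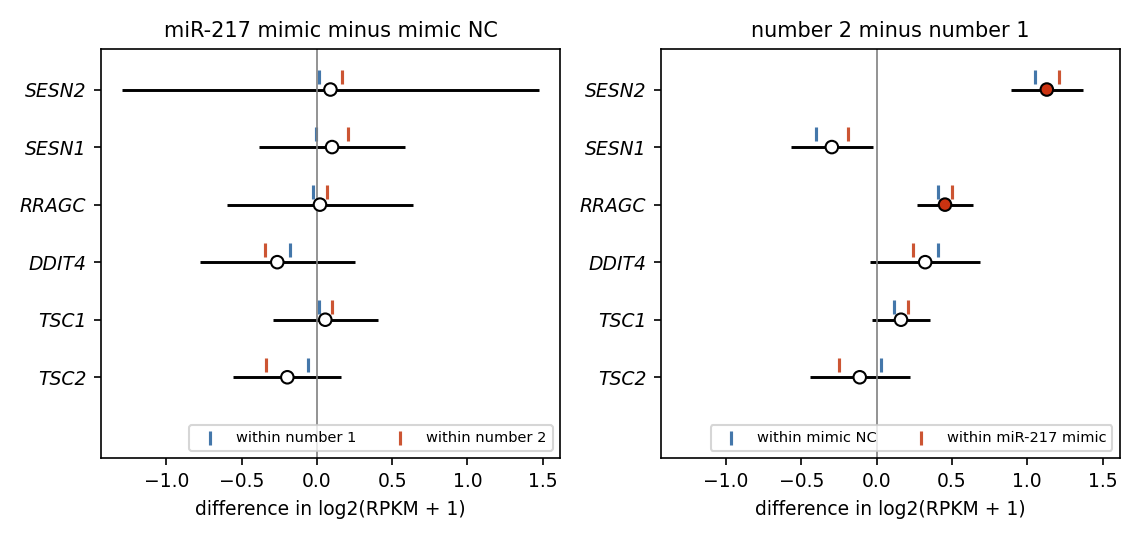
Difference in log2(RPKM + 1) for the 6 tested genes, miR-217 mimic minus mimic NC on the left and number 2 minus number 1 on the right, as limma estimates (circles) with 95% intervals (lines). Small ticks give the difference within each number or treatment. On the left all intervals include 0, and on the right the filled circles of SESN2 at 1.13 and RRAGC at 0.45 mark an adjusted p under 0.05.

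Between the libraries numbered 2 and those numbered 1, SESN2 and RRAGC rose. By limma, 2 of the 6 tested members had a Benjamini-Hochberg adjusted p under 0.05, against 7.04% of all genes tested, and both were higher, against 3.34% of all genes. At an unadjusted p under 0.05 there were 3 of the 6, against 30.2% of all genes. The libraries of the 2 numbers did not overlap in 5 of the 6, all but TSC2, against 62.4% of all genes. The median log2 difference was 0.24 over the 6 members and -0.04 over all genes tested. With 6 genes these shares are counts and not a result about the group. Depth moved with the number, as given above, and its part was not tested. The first principal component, with 71.3% of the variance of the tested genes, also separated the numbers.

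SESN2 (chromosome 1, plus strand, 28259527 to 28282491) encodes the sestrin that binds leucine and, when leucine is missing, holds back GATOR2. It was at 1.42 RPKM in mimic NC and 1.44 RPKM in miR-217 mimic in the libraries numbered 1, and at 4.02 and 4.65 RPKM in those numbered 2. The libraries numbered 2 were both far above those numbered 1, whatever the treatment. As reads these were 285 and 266 against 658 and 524, so the smaller libraries held more reads of the gene. The means were 1.43 ± 0.0135 and 4.34 ± 0.444 RPKM (SD, n = 2), a ratio of 3.02, with 2.82 within mimic NC and 3.22 within miR-217 mimic. The log2 difference was 1.13 (SE 0.09, 95% interval 0.89 to 1.37) and the limma Benjamini-Hochberg adjusted p was 0.0147. Of the 13871 differences between the numbers it was number 52 from the highest. The adjusted p was 0.0931 with no filter on low genes, 0.107 without mimic NC replicate 1 and 0.0925 without miR-217 mimic replicate 1, at log2 differences of 1.12 to 1.14. Its exons share no bases with another gene of the table.

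RRAGC (chromosome 1, minus strand, 38838198 to 38859823) encodes a Rag GTPase that works in a pair with RRAGA or RRAGB. It was at 5.52 and 5.40 RPKM in the libraries numbered 1 of mimic NC and miR-217 mimic and at 7.64 and 8.06 RPKM in those numbered 2. Again both libraries numbered 2 were the higher ones. The means were 5.46 ± 0.0833 and 7.85 ± 0.297 RPKM (SD, n = 2), a ratio of 1.44, with 1.38 within mimic NC and 1.49 within miR-217 mimic. The log2 difference was 0.45 (SE 0.07, 95% interval 0.27 to 0.64) and the limma Benjamini-Hochberg adjusted p was 0.0385. It was 0.117 with no filter on low genes, 0.287 without mimic NC replicate 1 and 0.280 without miR-217 mimic replicate 1, at log2 differences of 0.44 to 0.47. RP5-864K19.7, which holds 22.9% of the exon bases of RRAGC on the same strand, was at 10.8 to 12.2 RPKM with a number 2 to number 1 ratio of 1.07. As for FLCN, reads in the shared bases could belong to either gene.

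RRAGD (chromosome 6, minus strand, 89364636 to 89412270), the close relative of RRAGC, was nearly absent. It had 18 and 2 reads in mimic NC replicates 1 and 2 and 10 and 4 reads in miR-217 mimic replicates 1 and 2. The libraries numbered 2 were the lower ones at 0.00832 and 0.0242 RPKM, against 0.0613 and 0.0370 RPKM in those numbered 1. Per length, RRAGC therefore made up nearly all of the summed level of this pair in every library.

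SESN1 (chromosome 6, minus strand, 108986437 to 109094819) lay the other way from SESN2. It was at 1.48 and 1.47 RPKM in the libraries numbered 1 and at 0.874 and 1.16 RPKM in those numbered 2 of mimic NC and miR-217 mimic. The libraries did not overlap, but those numbered 2 differed from each other by more than those numbered 1. The ratio of the means was 0.690, with 0.592 within mimic NC and 0.789 within miR-217 mimic. Its log2 difference of -0.30 (95% interval -0.57 to -0.03) did not pass, with a limma Benjamini-Hochberg adjusted p of 0.142. RP11-787I22.3, which shares 7.09% of its exon bases on the opposite strand, had a number 2 to number 1 ratio of 0.593.

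The sestrins thus differed in make-up between the numbers. Per length, SESN2 held 48.4% of the summed sestrin level in mimic NC replicate 1 and 49.1% in miR-217 mimic replicate 1, and 82.0% and 79.4% in the replicates numbered 2. The summed level was 2.94 RPKM in each library numbered 1 and 4.91 and 5.86 RPKM in those numbered 2. SESN3 added at most 0.0464 RPKM to any of these sums. The share of SESN2 is a description of these 4 libraries and was not tested on its own.

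DDIT4 was the higher in both libraries numbered 2, with a number 2 to number 1 ratio of 1.33 within mimic NC and 1.18 within miR-217 mimic. Its log2 difference of 0.32 (95% interval -0.04 to 0.69) did not pass in limma (Benjamini-Hochberg adjusted p = 0.203). With a library left out, it was 0.49 without miR-217 mimic replicate 2 (limma Benjamini-Hochberg adjusted p = 0.0361), 0.15 without mimic NC replicate 2 (adjusted p = 0.281), 0.23 without miR-217 mimic replicate 1 (adjusted p = 0.622) and 0.41 without mimic NC replicate 1 (adjusted p = 0.432). RP11-442H21.2 on the opposite strand had the same ratio between the numbers as DDIT4, 1.26.

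TSC1 was 0.16 higher on the log2 scale (95% interval -0.03 to 0.36) in the libraries numbered 2, with a limma Benjamini-Hochberg adjusted p of 0.221. TSC2 was 0.11 lower (95% interval -0.44 to 0.22), with 0.03 higher within mimic NC and 0.25 lower within miR-217 mimic. FLCN was the higher in both libraries numbered 2, with ratios of 1.13 and 1.18. DEPTOR overlapped between the numbers, with ratios of 0.873 within mimic NC and 0.981 within miR-217 mimic. Counting the genes left out of the test as well, the libraries of the 2 numbers did not overlap in 7 of the 10 genes. The share over all genes tested was 62.4%. It does not cover genes under a mean of 1 RPKM, for which no share was computed.

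**Figure D3:**
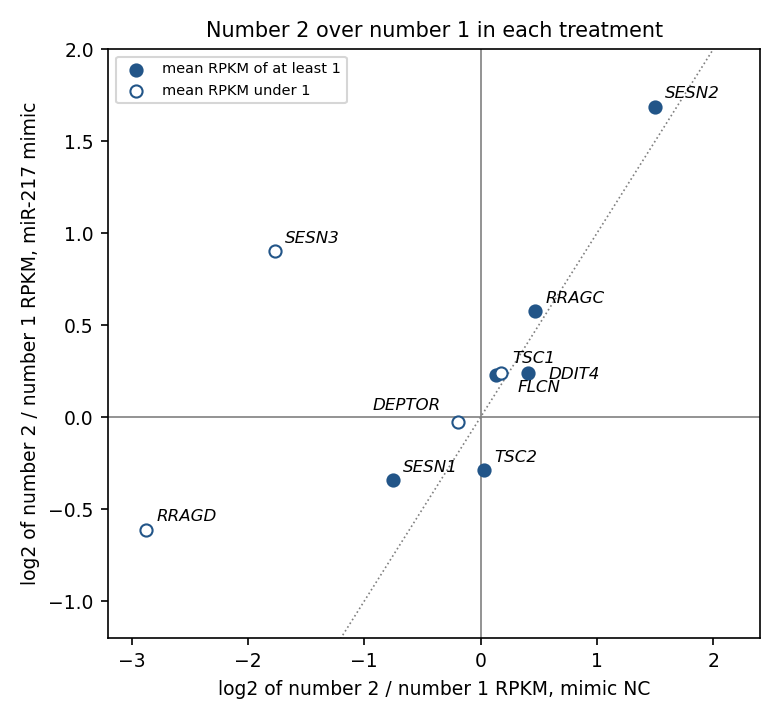
Log2 of the number 2 to number 1 ratio of RPKM for the 10 genes, within mimic NC (x axis) and within miR-217 mimic (y axis), with open circles for genes under a mean of 1 RPKM and a dotted line where both are equal. SESN2 and RRAGC lie high in both treatments near the line, SESN1 lies below 0 in both, and SESN3, with 6 to 25 reads per library, lies far from the line.

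Around these members, 65 other genes of the pathway were read from a written list, of which 64 were in the table and 51 were tested. With miR-217 mimic 23 of the 51 were higher and 28 lower, with a median log2 difference of -0.02, the same as over all genes tested at this rounding. Of these, 1 had an unadjusted p under 0.05 in limma and 0 an adjusted p under 0.05. The 1 gene was PRKAA1, which encodes a catalytic subunit of the energy-sensing kinase AMPK. PRKAA1 was at 18.5 and 19.2 RPKM in mimic NC and at 15.3 and 14.1 RPKM in miR-217 mimic, a log2 difference of -0.33 with an unadjusted p of 0.0384 in limma and a Benjamini-Hochberg adjusted p of 1.00. Both miR-217 mimic libraries were below both mimic NC libraries.

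By group, the genes with the lowest p in that comparison differed by less. Among GATOR1 and KICSTOR genes ITFG2 was 0.10 and NPRL3 0.07 higher on the log2 scale. Among GATOR2 genes and amino acid sensors MIOS was 0.11, SEH1L 0.08 and WDR24 0.06 higher. In the group of Rag, Ragulator and FLCN partners RRAGA was 0.24 and LAMTOR5 0.23 lower, while LAMTOR4 was 0.08 higher. Among subunits of the mTOR complexes AKT1S1 was 0.13 and RICTOR 0.14 lower and MLST8 0.11 higher. Beside PRKAA1, the TSC-RHEB group had PRKAA2 at 0.13 and PRKAB2 at 0.08 lower, both AMPK subunits. Among the outputs of the pathway ULK1, the kinase that starts autophagy, was 0.22, TFEB 0.19 and LPIN1 0.21 lower. None of these 16 genes had an unadjusted p under 0.05 in limma.

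Between the numbers, 24 of the 51 tested pathway genes were higher and 27 lower in the libraries numbered 2, with a median log2 difference of -0.02. At an unadjusted p under 0.05 in limma 7 were higher and 12 lower, and after Benjamini-Hochberg adjustment 2 of each passed 0.05. The libraries of the 2 numbers did not overlap in 42 of the 51. Over all genes tested these shares were 30.2% at an unadjusted p, 7.04% at an adjusted p and 62.4% without overlap, and nothing particular to the pathway was read from the counts.

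EIF4EBP1, the translation repressor that mTORC1 phosphorylates and an ATF4 target like SESN2, rose most. It was at 85.9 and 81.3 RPKM in the libraries numbered 1 of mimic NC and miR-217 mimic and at 217.0 and 180.6 RPKM in those numbered 2. The log2 difference was 1.23 with a limma Benjamini-Hochberg adjusted p of 0.0157. RHEBL1, a relative of RHEB, was at 2.88 and 2.32 RPKM in number 1 and at 5.33 and 6.22 RPKM in number 2. It rose by 0.91 on the log2 scale (limma Benjamini-Hochberg adjusted p = 0.0292). For both genes the numbers were well apart and the treatments interleaved.

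The transcripts of MITF, a relative of TFEB, and PDCD4, a translation inhibitor whose protein is degraded on signalling from mTORC1, fell. MITF was at 13.2 and 13.3 RPKM in number 1 and at 9.11 and 9.50 RPKM in number 2, a log2 difference of -0.47 (limma Benjamini-Hochberg adjusted p = 0.0337). PDCD4 was at 106.9 and 98.8 RPKM in number 1 and at 76.8 and 68.2 RPKM in number 2, a log2 difference of -0.50 (limma Benjamini-Hochberg adjusted p = 0.0470). For either gene the treatments differed by less within a number than the numbers did within a treatment.

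The group of Rag, Ragulator and FLCN partners lay mostly below 0 between the numbers. Of its 8 tested genes 7 were lower in number 2, with a median log2 difference of -0.22 against -0.04 over all genes tested, and 4 had an unadjusted p under 0.05, but none an adjusted p under 0.05. The Ragulator subunits LAMTOR4, LAMTOR2 and LAMTOR5, which anchor the Rag GTPases on the lysosome, were 0.29, 0.28 and 0.45 lower. RRAGC thus stood apart in direction from most of the genes it works with, which is a description of single genes and was not tested.

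The other groups had medians nearer to 0. Among GATOR1 and KICSTOR genes the median was 0.16 over 4 tested genes, with NPRL3 at 0.26 and ITFG2 at 0.14. Among GATOR2 genes and amino acid sensors it was 0.08 over 6 genes. There LARS, the leucyl-tRNA synthetase, was 0.33 and MIOS 0.24 higher at an unadjusted p under 0.05 in limma, and WDR24 was 0.14 lower. For the subunits of the mTOR complexes it was -0.04 over 8 genes, with TTI1 at -0.28, MAPKAP1 at -0.30 and RICTOR at 0.34. For the TSC-RHEB group it was 0.10 over 12 genes, where beside RHEBL1 the AMPK subunit PRKAG2 was 0.37 higher and AKT1 0.32 lower. The 13 tested outputs had a median of -0.13.

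**Figure D4:**
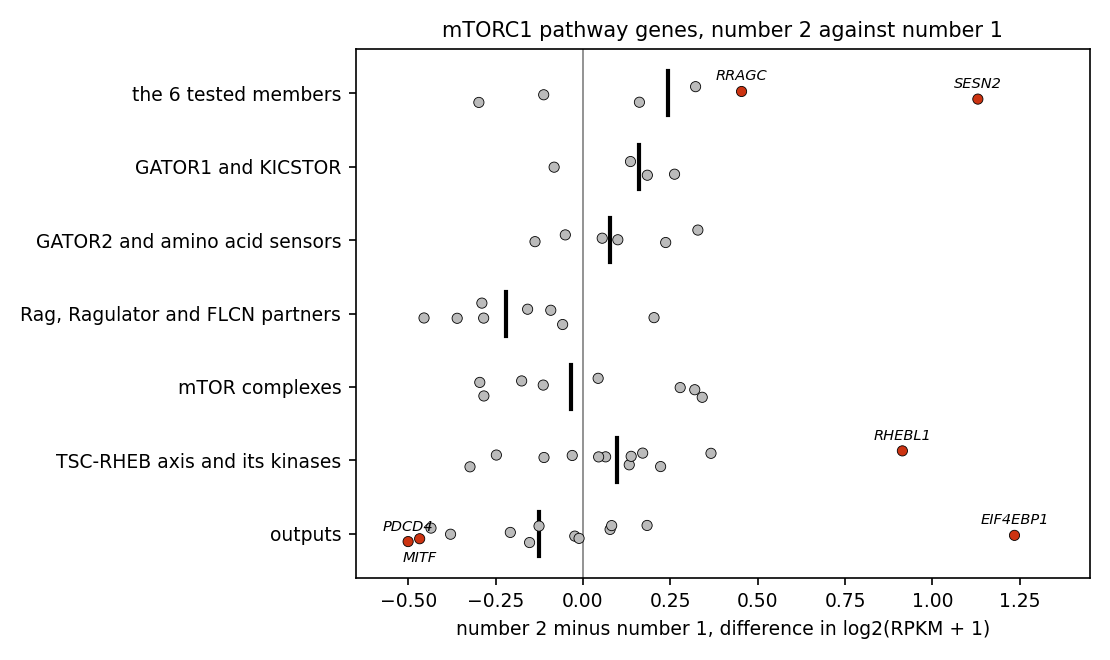
Number 2 minus number 1 in log2(RPKM + 1) for the 6 tested regulators and 51 other tested genes of the pathway by group (1 circle a gene, height within a group has no meaning), with group medians as bars and genes with an adjusted p under 0.05 in red and named. SESN2 at 1.13, EIF4EBP1 at 1.23 and RHEBL1 at 0.91 lie apart on the right, and most Rag, Ragulator and FLCN partners lie left of 0.

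Genes known as targets of the factors that drive the members were counted by list. The ATF4 list also includes ATF4 itself, and the lists were chosen with earlier results of these data known. Over all genes tested, 7.04% had an adjusted p under 0.05 between the numbers, and 3.34% were higher at that threshold. Of 12 tested ATF4 targets 11 were higher in number 2 at a limma Benjamini-Hochberg adjusted p under 0.05 and 0 lower, with a median log2 difference of 1.61. Their median with miR-217 mimic was -0.02. All 11 tested p53 targets were lower in number 2, 2 of them at an adjusted p under 0.05, with a median of -0.35. With miR-217 mimic the p53 median was -0.08. The 12 tested TFEB/TFE3 targets had a median of 0.13 between the numbers, with 3 higher at an adjusted p under 0.05 and 0 lower, and a median of -0.01 with miR-217 mimic. The 9 tested FOXO targets had a median of 0.11 between the numbers, with 2 higher and 1 lower at an adjusted p under 0.05, and a median of 0.00 with miR-217 mimic. The 8 tested HIF1 targets had a median of -0.16 between the numbers, with 1 higher and 1 lower at an adjusted p under 0.05. With miR-217 mimic all 8 were lower, with a median of -0.31, 1 at an unadjusted p under 0.05 in limma and 0 at an adjusted p under 0.05. The list medians stand beside -0.04 between the numbers and -0.02 with miR-217 mimic over all genes tested. The part of these factors in the levels of SESN2, SESN1, DDIT4 or RRAGC was not tested.

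The promoters of the members were read for the core letters that these factors are known to bind, since SESN2 and RRAGC moved together between the numbers. RefSeq windows of 300 bases (250 before to 50 after each start, GRCh38.p14) were used, with 35116 windows in all, on both strands. The motifs were TGATGNAA (ATF4 with a C/EBP partner), CACGTG (TFEB and TFE3), ACGTG (HIF1, also contained in CACGTG) and TGACGTCA (CREB and ATF factors). Windows were at hand for 8 members, which leaves out DEPTOR and RRAGD. TGATGNAA was found in TSC2 alone of the 8, against 3.62% of all windows. CACGTG was found in RRAGC and TSC2, against 7.26%, and ACGTG in DDIT4, RRAGC and TSC2, against 21.4%. TGACGTCA was found in none of the 8, against 1.85%. The window of SESN2 held none of the 4 motifs, which says only that these letters are not in this stretch. The stretches below are shown with the motif in capitals for the 3 members that held one. RRAGC lies at chr1:38859869-38859894, minus strand, with CACGTG at bases -112 to -107 from the start. TSC2 lies at chr16:2047865-2047892, plus strand, with TGATGNAA at -110 to -103. The CACGTG of TSC2, which contains its ACGTG, lies at -114 to -109. It overlaps the TGATGNAA match and is not marked separately. DDIT4 lies at chr10:72273789-72273813, plus strand, with ACGTG at -125 to -121.
RRAGC promoter: gtgattccggCACGTGacggggcacc
TSC2 promoter: ccccgtcacgTGATGCAAggatcgccgg
DDIT4 promoter: aacgttgcttACGTGcgcccggagt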

How the data were processed

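RNA-seq was measured in 4 MDA-MB-231 libraries, 2 of mimic NC and 2 of miR-217 mimic, grouped by their sample labels. Columns were assigned to libraries where the names matched. The authors deposited 1 table of RPKM values with exon coordinates and exon lengths, and so genes were read from there by name. The submitters' processing notes name Trimmomatic 0.36, featureCounts, Subread 1.5.1, edgeR 3.12.1 and hg38, with no order or role, and whether counting used strand is not given in the sources used here. In each library, RPKM multiplied by exon length was divided by a fitted step that takes the smallest nonzero value as 1 read. This gave whole reads for 100% of the nonzero values (tolerance 0.01 read). Totals were 57933183 and 47374957 reads in mimic NC replicates 1 and 2 and 53356283 and 32635814 in miR-217 mimic replicates 1 and 2. Low genes are least precise in the smallest.

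Values were tested as log2(RPKM + 1) with limma 3.58.1 in R 4.3.3 (lmFit, eBayes with a trend), two-sided, over the 13871 genes with a mean of at least 1 RPKM, without a replicate or treatment term. This scale understates changes of low genes. Adjusted p-values are Benjamini-Hochberg over all genes tested. The 10 members, the gene lists and the tests were chosen with earlier results of these data known. All members were named, and in each pathway list up to 3 tested genes with the lowest p in each comparison, of which 1 is not reported here. The target lists of ATF4, p53, TFEB/TFE3, FOXO and HIF1 were given by counts and medians. Where the table used older symbols, these were read. The alternatives tried were no filter, a pseudocount of 0.1, a mean of at least 5 RPKM, median centring, limma voom on the recovered reads, a replicate block (read for the number as a treatment term) and leaving out each library. Voom with the replicate block and voom for genes with a mean of at least 10 reads were added after the data were seen. The fits were first run on simulated counts with known changes. For the miR-217 mimic comparison these held no difference between the numbers, so they do not show how that fit performs on these data. Seed matches were searched per protein-coding gene in its longest 3'UTR of GENCODE 29. Figures were drawn with matplotlib 3.10.9 and Python 3.11.15.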

Additional observations from a re-analysis of the deposited data

Results flagged for a closer look

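The difference between number 2 and number 1 had opposite signs in the 2 treatments for 2 members. For TSC2 it was 0.0279 within mimic NC and -0.253 within miR-217 mimic on the log2(RPKM + 1) scale, from 4219 to 5048 reads in 3 libraries and 2227 reads in miR-217 mimic replicate 2. For SESN3 it was -0.0405 within mimic NC and 0.03 within miR-217 mimic, from 6 to 25 reads per library. With 1 library for each treatment and number, neither difference between the treatments was tested.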

How the results depend on the processing

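Low counts limit SESN3, DEPTOR and RRAGD, with 2 to 42 reads a library, while FLCN, at 252 to 371 reads over long exons, was left out by the RPKM filter, and 2 libraries a group leave few degrees of freedom. With miR-217 mimic, genes with an unadjusted p under 0.05 numbered 165, and 877 with no filter, 48 at a mean of at least 5 RPKM, 82 in voom, 1046 with the replicate block, 1261 in voom with the replicate block and 93 to 866 with a library left out. Members numbered 0, and 1 with no filter (DEPTOR, with a p of 0.0468), 1 with the replicate block (DDIT4, with a limma p of 0.0284 and a Benjamini-Hochberg adjusted p of 0.633) and 2 in voom with the replicate block (DDIT4 and TSC2). The deviations of same-numbered libraries correlated (r = 0.680 across genes), but over 2 pairs and with no label for the number. Between the numbers, genes with an adjusted p under 0.05 numbered 977, and 3 with no filter, 2262 in voom, 3280 in voom with the treatment term, 2424 in voom with a mean of at least 10 reads and 9 to 3931 with a library left out. Members numbered 2, and 0 with no filter, 1 at a mean of at least 5 RPKM (where SESN2 is not tested), 4 in voom with the treatment term (DDIT4 and SESN1 added) and 0 to 3 with a library left out. Without mimic NC replicate 1 or miR-217 mimic replicate 1 there were 9 and 13 genes and 0 members. With a library left out, the log2 difference with miR-217 mimic ranged from -0.10 to 0.30 for SESN1, -0.51 to 0.70 for SESN2, -0.23 to 0.27 for RRAGC, -0.0467 to 0.16 for TSC1, -0.32 to -0.07 for TSC2 and -0.46 to -0.06 for DDIT4, and that of TSC2 between the numbers from -0.28 to 0.0556. A lone library is assumed there to vary like the others. Where no cause is named, the cause was not tested.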
